A study of Sus scrofa with 24 samples.

Results

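Protein tyrosine phosphatases of the PTPN and PTPR families were examined in the hippocampus of neonatal piglets. Members were the genes whose pig symbol is PTPN or PTPR followed by a number or a single letter, matched through the Entrez gene identifier of each count row. This gave 37 genes of the 38882 listed, 20 receptor (PTPR) and 17 non-receptor (PTPN). Related names such as PTPRCAP and the SHP2-binding receptor SIRPA are not phosphatases of these families and were not counted as members.

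Protein tyrosine phosphatases remove phosphate from tyrosine and so oppose the tyrosine kinases that act in growth factor, insulin and adhesion signalling. The receptor members cross the membrane once and carry extracellular domains that bind proteoglycans, contactins or the same molecule on a neighboring cell, and in brain they are known for roles in axon growth, synapse formation and glial development. The non-receptor members are cytoplasmic and combine the catalytic domain with targeting domains. PTPN1 encodes PTP1B, an enzyme of the endoplasmic reticulum that acts on the insulin and leptin receptor pathways, and PTPN5 encodes STEP, a striatum and hippocampus enriched phosphatase that acts on glutamate receptors and MAP kinases.

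The study asked how small birth size and a formula with hydrolyzed fat (HF) affect brain development, using a cross of PIC Camborough dams with PIC 359 sires. Poly(A) RNA of 1 hippocampus sample per piglet was sequenced at 14 days of age in 4 groups of 6 formula-fed piglets. These were appropriate for gestational age piglets on control formula (AGA CON), AGA piglets on HF formula (AGA HF), small for gestational age piglets on control formula (SGA CON) and SGA piglets on HF formula (SGA HF). The HF formula kept triglyceride oils for part of its fat, supplied the rest as soy free fatty acids, a monoacylglycerol and soy lecithin, and had cholesterol added, and no sow-reared group was sequenced. An SGA and an AGA piglet of the same sex from 1 litter formed each of 12 pairs, both fed the same diet, with 6 pairs on each diet and 6 in each of 2 cohorts. Library totals over all listed genes lay between 6017336 and 9284355 counts, with a median of 7346072.5. Expression is given as CPM (counts scaled to a common library total), with library sizes scaled by the TMM method, and as CPM per kilobase of exon (RPKM) wherever genes were compared with each other.

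PROX1, a transcription factor of dentate granule neurons, was present with a mean of 48.1 CPM. With CALB1, the other dentate granule marker listed, it summed to group means of 45.7 to 50.6 CPM, so CALB1 added little. Some libraries stood apart from the rest. AGA CON replicate 2 had the lowest summed level of the 4 neuronal markers, 2832 CPM against a median of 5246 CPM, and the highest sums for astrocyte (12323 CPM), microglial (239 CPM) and endothelial markers (264 CPM). It also had the highest value of 24 for 7 members and the lowest for 4. AGA HF replicate 4 had the second lowest neuronal sum, 3650 CPM. SGA CON replicate 6 had the highest, 6395 CPM, and gave the highest or lowest value for 10 members. Several results below are therefore also given without AGA CON replicate 2 and AGA HF replicate 4. In SGA HF replicate 4 the summed pituitary markers reached 361 CPM against a median of 27.1 CPM. The summed choroid plexus markers reached 166 CPM in SGA CON replicate 1 and 117 CPM in SGA CON replicate 3, against a median of 44.6 CPM. Their group means were 52.2 CPM in AGA CON, 81.2 CPM in SGA CON, 42.4 CPM in AGA HF and 41.0 CPM in SGA HF piglets. Their part in the size differences was not tested. In bulk tissue, fewer cells of a type and less RNA per cell cannot be told apart.

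Of the 37 members, 30 passed the filter of at least 1 CPM in at least 3 libraries, 17 receptor and 13 non-receptor, among 16326 genes in all. The receptor members accounted for a median of 72.6% of the summed RPKM of the family, with a range of 68.6 to 73.5% over the 24 piglets. PTPRN and PTPRA together made up a median of 54.4% of the receptor total, and PTPN5 and PTPN11 made up 52.5% of the non-receptor total. These shares depend on the exon lengths of the gene models, several of which were short, as described below.

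The highest receptor member was PTPRN, which encodes a catalytically inactive protein of dense-core secretory vesicles, with 112 ± 18.1 RPKM (SD, n = 24). PTPRA, an activator of Src family kinases, followed at 91.9 ± 5.16 RPKM, and PTPRN was above it in 22 of the 24 piglets. PTPRN2, the vesicle-protein relative of PTPRN, came next at 34.3 ± 6.34 RPKM and was above PTPRZ1 in 19 piglets. This rank rests on a short model of 735 exon bases and cannot be taken as that of the whole gene. In CPM, PTPRN2 averaged 25.6 in cohort 1 and 24.8 in cohort 2, and PTPRZ1 260 and 237. PTPRZ1, a receptor for pleiotrophin on glia and their progenitors, had 30.7 ± 4.90 RPKM. It exceeded the next member, PTPRU, which mediates adhesion, in 24 of 24 piglets. Some neighbors further down did not separate. PTPRR, a phosphatase of MAP kinases, exceeded PTPRG in 12 of 24 piglets, whereas PTPRO exceeded PTPRK in all 24. The lowest members that passed the filter were PTPRB, the phosphatase of vascular endothelium, at 2.39 ± 0.481 RPKM, PTPRT, an adhesion molecule of neurons, at 1.63 ± 0.618 RPKM, and PTPRC (CD45), the phosphatase of leukocytes and microglia, at 0.778 ± 0.328 RPKM.

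Among the non-receptor members PTPN5 was highest, with 49.9 ± 11.7 RPKM, and exceeded PTPN11 in 23 of 24 piglets. PTPN11 encodes SHP2, which carries signals from growth factor receptors to RAS, and had 26.7 ± 3.14 RPKM. PTPN23, an endosomal sorting protein, had 14.6 ± 1.44 RPKM and PTPN1 14.0 ± 1.30 RPKM, with PTPN23 the higher in 16 of 24 piglets. The lowest that passed the filter were PTPN21, a FERM-domain phosphatase, at 1.62 ± 0.292 RPKM, PTPN7, a MAP kinase phosphatase of blood cells, at 0.539 ± 0.370 RPKM, and PTPN14, a FERM-domain relative of PTPN21, at 0.235 ± 0.125 RPKM. Expressed as a coefficient of variation over the 24 piglets, the spread among the 30 members that passed the filter was smallest for PTPRA (5.6%) and largest for PTPN7 (68.6%), for which 1 to 18 reads were counted per library.

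**Figure D1:**
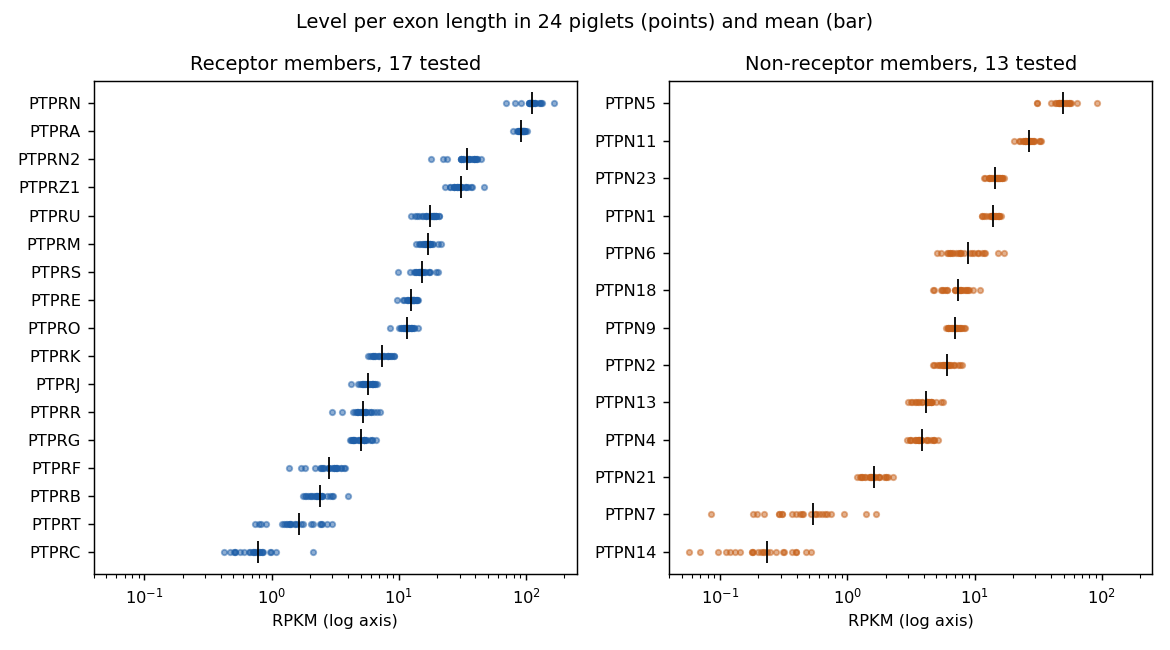
Level of the 30 members that passed the filter, in RPKM on a log axis, with 1 point per piglet (n = 24) and a bar at the mean, receptor members on the left and non-receptor members on the right. The means of PTPRN and PTPRA lie near 100 RPKM and that of PTPN5 near 50 RPKM, while the means of PTPRC, PTPN7 and PTPN14 lie below 1 RPKM.

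The 7 members that did not pass were PTPRD, PTPRH, PTPRQ, PTPN3, PTPN12, PTPN20 and PTPN22. PTPN22, the lymphoid phosphatase, had 0 counts in all 24 libraries, PTPN20 had 1 read in all, and PTPN12 reached at most 9 reads in a library. A count of 0 in a library allows a level of up to 3 counts, or 0.323 to 0.499 CPM depending on its total. Several gene models of the Sscrofa10.2 annotation were short for genes of this kind. The PTPRN2 model held 735 exon bases in 4 stretches, PTPRS held 1868 and PTPRM held 2187. PTPRD held 2681 on an unplaced scaffold, and the median of the receptor members was 3499.5. PTPN12 held 993 and PTPN22 held 1139, against a median of 3220 for the non-receptor members. A level read from such a model cannot be taken as that of the whole gene, and a low count for PTPRD, PTPN12 or PTPN22 does not show that the gene was silent. No member shared exons on the same strand with another listed gene.

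Birth size was compared between SGA and AGA piglets across both diets. PTPN4 is a phosphatase with FERM and PDZ domains that binds synaptic proteins. It was up-regulated in SGA piglets and was the 1 member called by edgeR at an FDR p under 0.4. The study set this level for its heat map of DEGs, and at so lenient a threshold many calls can be false. At this threshold 0.478% of all genes tested were called for size and 0.312% were called as higher in SGA piglets, and 1 of 30 members was called. In AGA CON piglets PTPN4 had a lowest value of 34.3, a median of 38.6 and a highest value of 42.3 CPM, and in SGA CON piglets 42.0, 49.1 and 53.5 CPM. On the HF diet the values were 32.4, 40.0 and 53.5 CPM in AGA and 35.2, 41.1 and 56.9 CPM in SGA piglets. The CON groups therefore met only at their edges, while the HF groups overlapped along most of their range.

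The fitted log2 fold change of PTPN4 was 0.30 ± 0.074 (SE; edgeR quasi-likelihood test, unadjusted p of 0.000643, FDR = 0.383). SGA exceeded AGA in 9 of 12 litters, in 6 of 6 on CON and 3 of 6 on HF. The mean littermate difference was 0.24 on the log2 scale in cohort 1 and 0.14 in cohort 2. With litter as a block in place of sex and the surrogate variables, the value was 0.19 and PTPN4 was no longer called (FDR = 0.491). By limma-voom, the test that the study used, it was 0.29 and was not called (FDR = 0.447). No other member was called for size by limma-voom, where 0.325% of all genes were. Without AGA CON replicate 2 it was 0.24 (FDR = 0.446), and without AGA HF replicate 4 as well it was 0.27 (FDR = 0.533). With DESeq2, RLE scaling or no filter on low counts PTPN4 was called, where 1.29%, 0.662% and 0.452% of all genes were. PTPN4 lies at chr15:36235035-36459764 on the plus strand (Sscrofa10.2).

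PTPN5 and PTPRN were the other members higher in SGA piglets at an unadjusted p under 0.05. AGA CON piglets had a lowest value of 94.9, a median of 142 and a highest value of 163 CPM, and SGA CON piglets 149, 173 and 283 CPM. On the HF diet the values were 94.1, 141 and 157 CPM in AGA and 140, 143 and 173 CPM in SGA piglets. SGA was higher in 10 of 12 litters, a count reached in that direction by 3.8% of all genes tested. The fitted log2 fold change was 0.16 ± 0.055 (SE, unadjusted p of 0.0085, FDR = 0.581), so PTPN5 was not called. In the littermate block the value was 0.30 and PTPN5 was called (FDR = 0.324), with 2.57% of all genes called. It was 0.19 without AGA CON replicate 2 and again called (FDR = 0.370), with 2.35% of all genes called. Without both low-neuron libraries it was 0.15 (FDR = 0.659). PTPN5 lies at chr2:43468196-43530692 on the plus strand.

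PTPRN had its extreme values in the same libraries as PTPN5. AGA CON piglets had 254, 401 and 473 CPM (lowest, median and highest), SGA CON piglets 396, 432 and 605 CPM, AGA HF piglets 301, 395 and 417 CPM, and SGA HF piglets 391, 405 and 482 CPM. The fitted log2 fold change was 0.10 ± 0.037 (SE, unadjusted p of 0.0168, FDR = 0.641), and SGA was higher in 8 of 12 litters. Without AGA CON replicate 2 it was 0.13 (FDR = 0.508), without AGA HF replicate 4 as well 0.089 (FDR = 0.721), and in the littermate block 0.21 (FDR = 0.491). The highest values of both PTPN5 and PTPRN were in SGA CON replicate 6, and the 2 lowest of each in AGA CON replicate 2 and AGA HF replicate 4. These are the libraries at the ends of the neuronal marker sum. Among AGA piglets that sum averaged 4976 ± 1084 CPM on CON and 4906 ± 757 CPM on HF, and among SGA piglets it averaged 5495 ± 673 CPM on CON and 5172 ± 201 CPM on HF (SD, n = 6), with NRGN the most abundant of the 4 markers and none at 0. The part of this sum in the PTPN5 and PTPRN differences was not tested. The highest SGA HF value of both genes was in SGA HF replicate 4, the library with 361 CPM of pituitary markers. The part of that library in these differences was not tested either.

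Lower values in SGA piglets were found for PTPRS and PTPN1 at an unadjusted p under 0.05. The count lower at this level was 1 with limma-voom, DESeq2 or RLE scaling and 2 with the littermate block or without surrogate variables. PTPRS, a receptor for heparan and chondroitin sulfate proteoglycans that organizes synapses, had 26.5, 30.1 and 38.3 CPM in AGA CON piglets and 18.6, 25.5 and 30.2 CPM in SGA CON piglets. On the HF diet the values were 25.2, 27.4 and 36.5 CPM in AGA and 24.6, 28.1 and 29.9 CPM in SGA piglets. The groups overlapped on both diets. The fitted log2 fold change was -0.21 ± 0.070 (SE, unadjusted p of 0.0075, FDR = 0.570), with SGA lower in 8 of 12 litters, and it rests on the short PTPRS model described above. The mean littermate difference was -0.29 on CON and -0.071 on HF on the log2 scale. Without surrogate variables the fitted value was -0.26 in cohort 1 and -0.11 in cohort 2, and without litter 5 it was -0.098 (FDR = 0.704).

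PTPN1 encodes PTP1B, which the study discusses from published work in mice and for which it gives no value of its own. The study lists protein tyrosine phosphatase activity among the terms for genes up-regulated in SGA piglets, without naming the genes. AGA CON piglets had a lowest value of 43.1, a median of 47.0 and a highest value of 50.5 CPM, and SGA CON piglets 36.6, 41.7 and 50.5 CPM. AGA HF piglets had 44.0, 47.0 and 51.8 CPM, and SGA HF piglets 38.5, 43.8 and 47.5 CPM. The SGA medians were below the AGA medians on both diets, and the ranges overlapped. The littermate difference averaged -0.14 ± 0.168 on the log2 CPM scale (SD, n = 12 litters), SGA was lower in 9 of 12 litters, and the exact two-sided sign-flip test over litters gave p = 0.0132, where the smallest value possible is 0.000488. In the fit across all genes the log2 fold change was -0.12 ± 0.056 (SE, unadjusted p of 0.0464, FDR = 0.725), so PTPN1 was not called there. PTPN1 lies at chr17:58450256-58474772 on the plus strand.

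In all, 5 of 30 members had an unadjusted p under 0.05 for size, 3 higher and 2 lower in SGA piglets, where 10.6% of all genes tested did, 5.6% higher and 4.95% lower. PTPRO, a receptor phosphatase of axons and podocytes, had a p of 0.0543 with SGA lower in 10 of 12 litters, a count that 4.86% of all genes reached in that direction. Leaving out AGA CON replicate 2 left 1 member called, PTPN5 in place of PTPN4, where 2.35% of all genes were called, and leaving out AGA HF replicate 4 as well left 0 (edgeR, 0.16% of all genes), with 4 higher and 1 lower at an unadjusted p under 0.05, where 9.64% of all genes were.

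**Figure D2:**
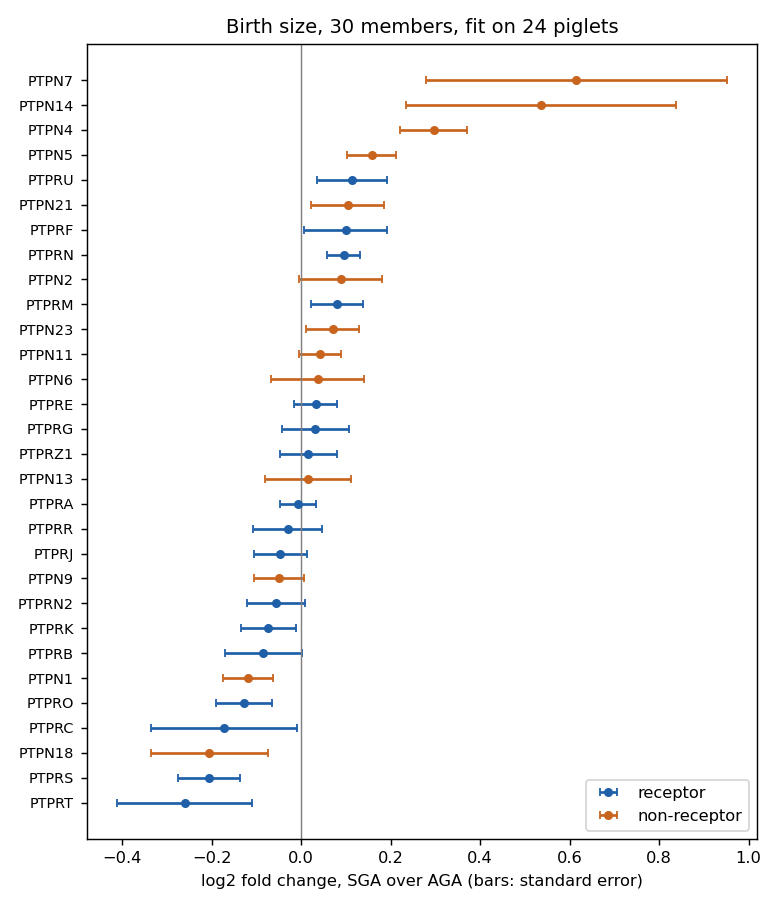
Fitted log2 fold change of SGA over AGA for the 30 members tested, with bars for the standard error, receptor members in blue and non-receptor members in orange. PTPN4 stands at 0.30 with a short bar, while PTPN7 and PTPN14, which have the largest values, have bars several times as long.

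**Figure D3:**
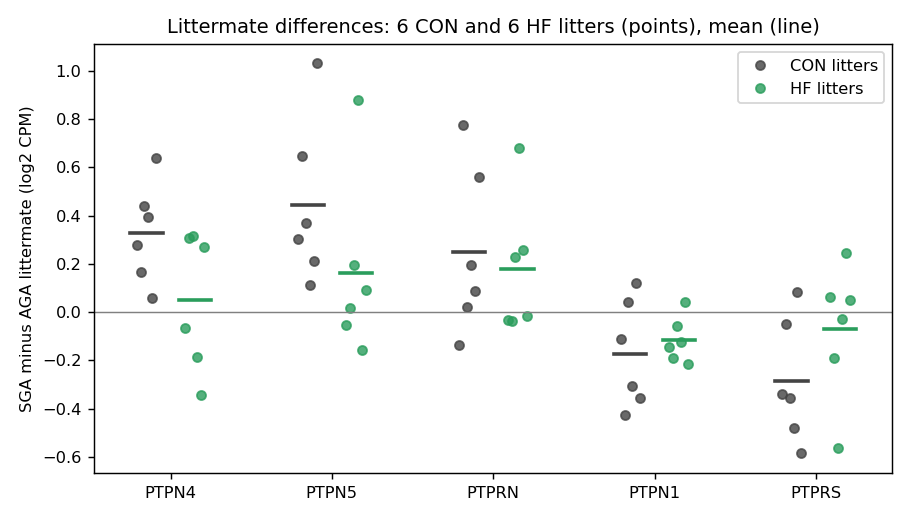
SGA minus AGA difference in log2 CPM within each litter for the 5 members with an unadjusted p under 0.05 for size, 6 CON and 6 HF litters as points and the mean as a line. All 6 CON litters lie above 0 for PTPN4 and PTPN5, whereas the HF litters lie on both sides of 0 for each of the 5 genes.

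Both classes were then set side by side. Of the 13 non-receptor members 10 had a size log2 fold change above 0, with a median of 0.070, and of the 17 receptor members 7 did, with a median of -0.030. Over all genes tested 49.2% were above 0 and the median was -0.002. PTPN7 and PTPN14 had the largest values, 0.61 ± 0.336 and 0.54 ± 0.301 (SE), at means of 0.955 and 1.37 CPM, close to the detection limit. PTPN7 reached 1 CPM in 2 AGA and 7 SGA libraries, so it passed the filter through the SGA piglets and its sign is no independent value. Without it, 9 of 12 non-receptor members were above 0, with a median of 0.056. Under the littermate block the class medians were 0.035 and 0.027, so the difference in sign between the classes was not seen there. As summed RPKM, the non-receptor class on CON stood at 142 ± 3.87 for AGA and 156 ± 13.5 for SGA, and on HF at 139 ± 5.04 for AGA and 145 ± 5.24 for SGA (SD, n = 6). Without PTPN5 these sums were 96.7 ± 8.64, 93.5 ± 3.13, 95.2 ± 5.74 and 96.0 ± 1.80 RPKM, with SGA lower on CON and higher on HF. The summed receptor class averaged 367 RPKM in AGA and 384 RPKM in SGA piglets on CON. On HF it averaged 366 RPKM in AGA and 379 RPKM in SGA piglets. SGA was thus higher on both diets, with overlapping ranges. Without PTPRN the receptor class stood at 260, 258, 264 and 264 RPKM in the same order.

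Oligodendrocyte markers had lower sums in the SGA groups of these libraries. The 5 markers, with MBP the most abundant, summed to 13774 ± 1551 CPM on CON and 13479 ± 3239 CPM on HF in AGA piglets, and to 10518 ± 1624 CPM on CON and 11394 ± 2634 CPM on HF in SGA piglets (SD, n = 6). None of these markers was at 0. In the fit for size all 5 had a log2 fold change below 0, with a median of -0.19, and none was called by edgeR. CNP, an enzyme of myelin, was the 1 marker with an unadjusted p under 0.05, at -0.27 ± 0.108 (SE, FDR = 0.648). The part of this in the size differences of the phosphatases was not tested.

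Diet was compared between HF and CON piglets across both birth sizes. No member was called by edgeR, nor by DESeq2 or limma-voom. Of all genes tested, edgeR called 0.159%, DESeq2 0.539% and limma-voom 0.0613%. An unadjusted p under 0.05 was found for 4 of 30 members, 2 in each direction, and for 7.1% of all genes. PTPN9, a phosphatase with a lipid-binding Sec14 domain that acts in vesicle fusion, had 28.7, 31.9 and 34.8 CPM in the 12 CON piglets and 28.0, 35.5 and 39.1 CPM in the 12 HF piglets. Its log2 fold change was 0.17 ± 0.056 (SE, unadjusted p of 0.0069, FDR = 0.564). Without AGA CON replicate 2 it was 0.078 (FDR = 0.804), and without AGA HF replicate 4 as well 0.16 (FDR = 0.629). In cohort 1 alone it was 0.19 and in cohort 2 alone 0.0016, without surrogate variables. The highest CON piglet was below the HF median, and the lowest piglet of each diet was nearly the same.

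PTPRN2 had 13.1, 25.9 and 30.2 CPM on CON and 17.7, 26.5 and 32.5 CPM on HF, with medians close to each other, and a log2 fold change of 0.18 ± 0.067 (SE, unadjusted p of 0.0131, FDR = 0.612). Without AGA CON replicate 2 this value turned to -0.038, and without AGA HF replicate 4 as well it was 0.10. PTPN5 had a median of 161 CPM on CON and 143 CPM on HF, with a log2 fold change of -0.12 ± 0.054 (SE, unadjusted p of 0.0410, FDR = 0.715). Without AGA CON replicate 2 it was -0.19 and was called (FDR = 0.323, with 2.55% of all genes called), and without AGA HF replicate 4 as well it was -0.14 (FDR = 0.695). Without surrogate variables it was -0.046 in cohort 1 and -0.33 in cohort 2. PTPRC had a log2 fold change of -0.35 ± 0.163 (SE, unadjusted p of 0.0431, FDR = 0.719) at 9 to 45 reads per library. It was -0.62 in cohort 1 and -0.22 in cohort 2, without surrogate variables, and -0.21 without litter 7.

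The size by diet interaction asks whether the effect of birth size differed between diets. No member was called by edgeR, DESeq2 or limma-voom, which called 0.049%, 0.104% and 0.00613% of all genes. With edgeR, 2 of 30 members had an unadjusted p under 0.05, against 4.01% of all genes. PTPN23 had 48.2, 58.4 and 61.9 CPM in AGA CON and 45.2, 53.4 and 56.4 CPM in SGA CON piglets. On the HF diet its values were 44.6, 49.3 and 61.0 CPM for AGA and 56.5, 57.7 and 63.9 CPM for SGA piglets. All SGA HF piglets were above 5 of the 6 AGA HF piglets, whose one high value was the library with few neuronal reads, AGA HF replicate 4. SGA exceeded AGA in 1 of 6 CON litters and 5 of 6 HF litters. The interaction log2 fold change was 0.32 ± 0.112 (SE, unadjusted p of 0.0103, FDR = 0.586), 0.35 without AGA CON replicate 2, where it was called (FDR = 0.386, with 0.529% of all genes called), and 0.41 without AGA HF replicate 4 as well (FDR = 0.495).

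PTPRR had an interaction of the opposite sign. Its values were 8.12, 14.3 and 14.8 CPM in AGA CON and 11.9, 15.3 and 18.3 CPM in SGA CON piglets. On the HF diet they were 9.60, 14.4 and 19.4 CPM for AGA and 12.2, 12.8 and 16.4 CPM for SGA piglets. SGA was above AGA in 4 of 6 CON litters and 1 of 6 HF litters. The groups overlapped, and the interaction was -0.45 ± 0.145 on the log2 scale (SE, unadjusted p of 0.0055, FDR = 0.551). With the littermate block 0 members had a negative interaction at an unadjusted p under 0.05, so PTPRR did not reach that level. The lowest values of the AGA groups were those of AGA CON replicate 2 and AGA HF replicate 4. Without the first the interaction was -0.33 (FDR = 0.684), and without both it was -0.51 (FDR = 0.553).

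**Figure D4:**
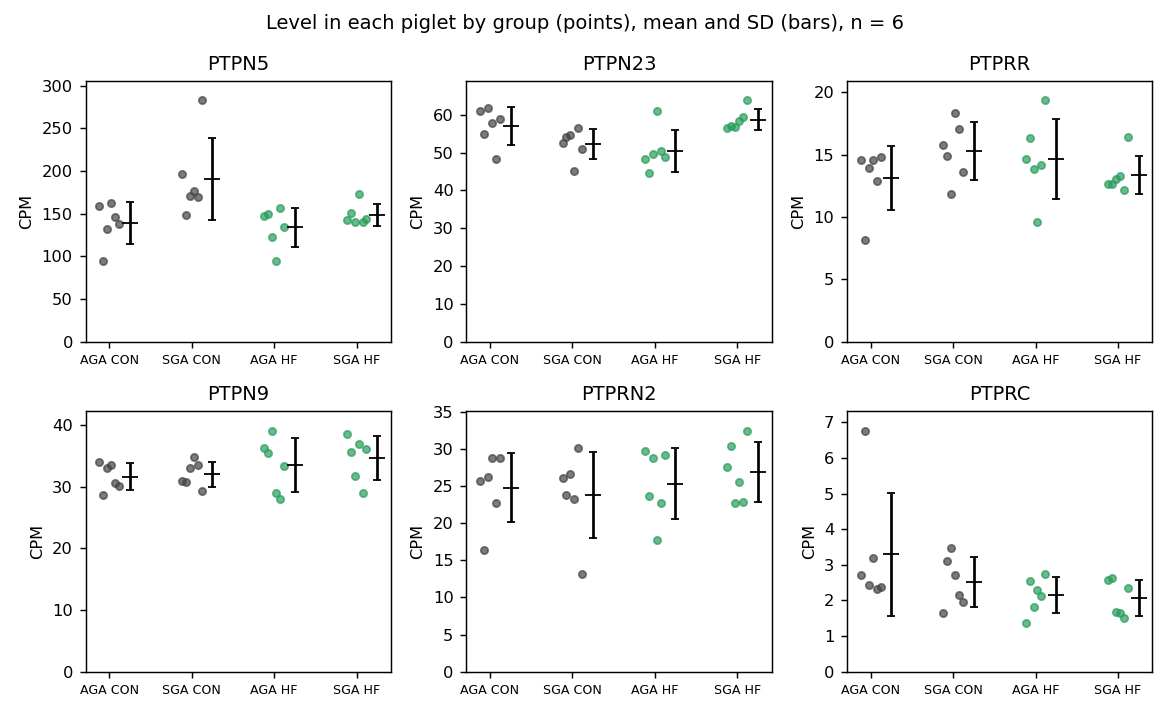
CPM of PTPN5, PTPN23, PTPRR, PTPN9, PTPRN2 and PTPRC in each piglet of the 4 groups (n = 6), with the mean and SD beside the points and axes that start at 0. PTPN5 in SGA CON reaches 283 CPM in 1 piglet, and the SGA HF values of PTPN23 lie above all AGA HF values but 1.

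In the 4 pairwise comparisons edgeR called 0 members in each, where 0.129% of genes were called for SGA CON against AGA CON, 0.288% for SGA HF against AGA HF, 0.0674% for AGA HF against AGA CON and 0.0919% for SGA HF against SGA CON. limma-voom called 0 in each, and DESeq2 called PTPN4 for SGA CON against AGA CON and 0 in the others. In the same order, limma-voom called 0.0613%, 0.147%, 0.0184% and 0.0306% of all genes, and DESeq2 called 0.349%, 0.827%, 0.361% and 0.19%. The comparisons share groups and are not independent. For SGA CON against AGA CON, 3 of 30 members had an unadjusted p under 0.05, against 6.59% of genes. PTPN4 had a log2 fold change of 0.39 ± 0.102 (SE, FDR = 0.404), just outside the threshold, and PTPRS had -0.26 ± 0.095 (SE, FDR = 0.610). With the littermate block PTPN4 and PTPN5 were both called in this comparison, where 1.26% of all genes were, and without AGA CON replicate 2 PTPN4 was called (FDR = 0.392), where 0.787% were.

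For SGA HF against AGA HF, 3 members had an unadjusted p under 0.05, against 8.02% of genes, with PTPN23 at 0.23 ± 0.083 (SE, FDR = 0.606) and PTPRR at -0.25 ± 0.106 (SE, FDR = 0.669). The PTPRR value was -0.14 without AGA CON replicate 2, -0.29 without AGA HF replicate 4 as well, -0.11 in the littermate block and, without surrogate variables, -0.24 in cohort 1 and -0.029 in cohort 2. For AGA HF against AGA CON there were 3, against 6.09% of genes, the smallest p being that of PTPRN2 at 0.25 ± 0.093 (SE, FDR = 0.615), which turned to -0.054 without AGA CON replicate 2. For SGA HF against SGA CON there were 3, against 5.16% of genes, each lower on HF, with the smallest p for PTPN5 at -0.19 ± 0.073 (SE, FDR = 0.644). This PTPN5 value was -0.24 and called without litter 4 (FDR = 0.395, with 0.524% of all genes called), -0.36 without surrogate variables (FDR = 0.813) and -0.44 in cohort 2 (FDR = 0.874). The size difference of PTPN4 was 0.20 ± 0.102 on HF, and the test of its difference between diets gave -0.19 ± 0.139 (SE, unadjusted p of 0.194, FDR = 0.853).

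PTPRC and PTPN6 (SHP1) are known in brain as phosphatases of microglia. PTPRC ranged from 1.36 to 6.77 CPM and PTPN6 from 12.0 to 40.6 CPM, and for both the highest of 24 values was in AGA CON replicate 2, which also had the highest microglial sum. The 7 microglial markers, of which C1QA was the most abundant and none at 0, summed on CON to 158 ± 52.9 CPM for AGA and 143 ± 44.4 CPM for SGA piglets, and on HF to 141 ± 50.6 CPM for AGA and 133 ± 35.2 CPM for SGA piglets (SD, n = 6). Without AGA CON replicate 2 the diet log2 fold change of PTPRC was -0.29 (unadjusted p of 0.0708, FDR = 0.673). The lymphocyte markers summed to a median of 7.21 CPM. Whether the number of microglia had a part in the PTPRC values was not tested.

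**Figure D5:**
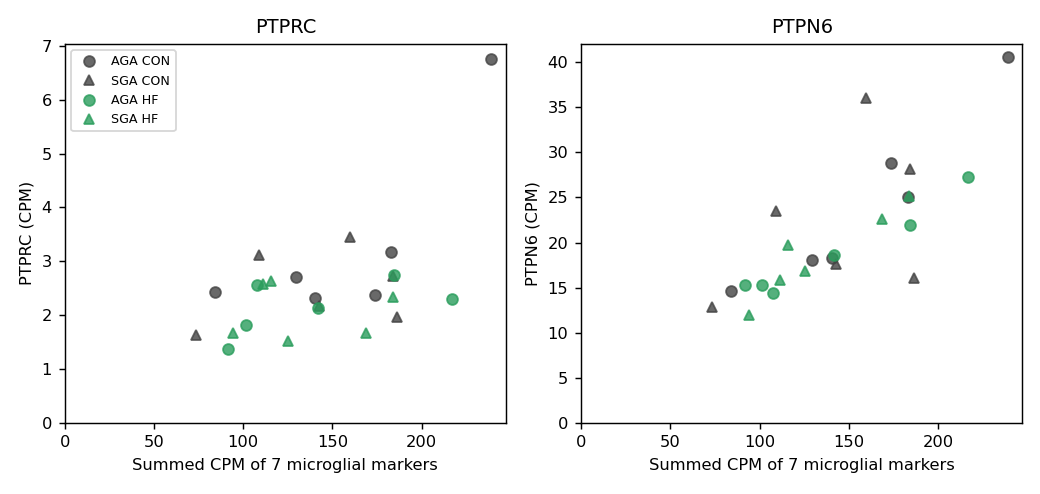
CPM of PTPRC and PTPN6 in each piglet against the summed CPM of 7 microglial markers, with circles for AGA, triangles for SGA, black for CON and green for HF. The piglet at the upper right of both panels is AGA CON replicate 2, at 239 CPM of markers, and the groups are mixed along both axes.

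Genes that act with these phosphatases were read from lists written with earlier results of these data known. For size, 0 of 40 tested ligands and partners of the receptor members were called (edgeR), with 0 higher and 1 lower at an unadjusted p under 0.05. Over all genes tested, 0.478% were called for size. At an unadjusted p under 0.05, 5.6% were higher and 4.95% lower, against which the counts of each list stand. The gene of this list was CNTN5, a contactin and so a neuronal adhesion protein, at -0.39 ± 0.178 (SE, FDR = 0.716). The median log2 fold change of this list was 0.033. Of 14 cadherin and catenin genes, the adhesion complex on which several receptor members act, 0 were called and 2 were higher at an unadjusted p under 0.05, CTNNA1 at 0.14 ± 0.058 and CTNND1 at 0.11 ± 0.049 (SE, FDR = 0.663 and FDR = 0.690), with a list median of -0.008.

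Of 21 substrates of the non-receptor members 0 were called. At an unadjusted p under 0.05, PTK2B, a kinase on which STEP acts, had 0.10 ± 0.041 and GRIN2A, a subunit of the NMDA receptor, 0.40 ± 0.172, while MAPK3 (ERK1) had -0.18 ± 0.067 (SE, FDR = 0.666, FDR = 0.684 and FDR = 0.626). Of 10 Src family kinases and regulators 0 were called, and FGR and LYN had 0.37 ± 0.146 and 0.16 ± 0.077 (SE, FDR = 0.645 and FDR = 0.733). The medians of these lists were 0.015 and 0.035.

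The list of adaptors and RAS-MAPK genes around SHP2 had 4 of 20 higher and 1 lower at an unadjusted p under 0.05 (5.6% and 4.95% over all genes), and 0 called. SIRPA, a receptor that recruits SHP1 and SHP2, had 0.27 ± 0.069 (SE, FDR = 0.402), just outside the threshold, and GAB2, an SHP2 docking protein, had 0.23 ± 0.086 (SE, FDR = 0.616), while its relative GAB1 had -0.16 ± 0.074 (SE, FDR = 0.718). The list median was 0.015. Of 43 other cysteine-based phosphatases 1 was called, MTMR1, a phosphoinositide phosphatase, which was up-regulated in SGA piglets at 0.25 ± 0.052 (SE, FDR = 0.224). Over all genes tested 0.478% were called for size, and 0.312% were called as higher. At an unadjusted p under 0.05 there were 4 higher, among them DUSP6, an ERK phosphatase, at 0.31 ± 0.085 (SE, FDR = 0.428), and 2 lower, ACP1 at -0.32 ± 0.110 and DUSP26 at -0.22 ± 0.097 (SE, FDR = 0.575 and FDR = 0.684). The list median was -0.024.

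For diet, no gene of these lists was called by edgeR, where 0.159% of all genes tested were. At an unadjusted p under 0.05 there were 0 higher and 4 lower of the 40 ligands and partners, 0 and 0 of the cadherin and catenin genes, 0 and 3 of the substrates, 0 and 1 of the Src family list, 0 and 1 of the SHP2 list and 0 and 4 of the other cysteine-based phosphatases. Over all genes 3.59% were higher and 3.51% lower at this level. For the interaction the lists held 0 called genes, with 1 higher (the catenin JUP, 0.31 ± 0.101) and 1 lower (SPRY1, an inhibitor of RAS signalling, -1.30 ± 0.568, SE) at an unadjusted p under 0.05. Over all genes tested 0.049% were called for the interaction, and 4.01% had an unadjusted p under 0.05.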

How the data were processed

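Reads of 24 hippocampal libraries were trimmed (Trimmomatic 0.33), aligned (STAR 2.5.2a, Sscrofa10.2) and counted by gene and strand (featureCounts of Subread 1.5.0) by the authors, who deposited whole-number counts without normalization. Members and gene lists were chosen with earlier results of these data known. Gene symbols came from a name table of Sscrofa11.1, which held 23036 of the 38882 identifiers. An entry without identifier, 0.613 to 1.62% of reads, was left out. In R 4.3.3, genes reaching 1 CPM in 3 or more libraries (16326) were fitted with edgeR 4.0.16 (TMM, quasi-likelihood) on 4 groups, sex and 5 surrogate variables (sva 3.50.0), with the Benjamini-Hochberg FDR taken over 7 contrasts together. Named were PTPN1, the called members, those of smallest p under 0.05 in each direction, and the 3 highest and lowest of each class. PTPRO, PTPN6 and the middle of the level order were named after their values were seen. The procedure was tested on simulated data. RPKM is CPM per kilobase of exon. Littermates correlated in their deviations from group means (mean r of 0.154 over 12 pairs, 0.031 for other pairs), and the pairing is from the labels. Floors cover counting error only.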

Additional observations from a re-analysis of the deposited data

Results flagged for a closer look

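In each group of 6 piglets, the highest or lowest value of a named member was tested for a gap to its neighbor that is large against the group's range (Dixon's 95% criterion). For independent groups of normally distributed values, chance gives a gap of this size in about 1 of 20 groups. That is 3.4 of the 68 groups tested, and 12 were found. The groups reuse the same libraries for different genes, so they are not independent, and the 2 counts cannot be compared strictly. Of these, 4 were in AGA CON replicate 2, the library with the fewest neuronal and the most microglial and endothelial reads. It held the highest PTPRC (6.77 CPM), PTPRB (32.8 CPM) and PTPN7 (1.65 CPM) and the lowest PTPRR (8.12 CPM) of its group.

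AGA HF replicate 4, the other library with few neuronal reads, had the highest PTPN23 (61.0 CPM) and the lowest PTPRA (259.8 CPM) of its group. SGA CON replicate 6 had the highest PTPN5 (282.7 CPM) and the highest neuronal sum, and SGA HF replicate 4, the library with pituitary transcripts, had the highest PTPN5 of the SGA HF group (173 CPM). The remaining flags were PTPN7 in SGA CON replicate 2 (2.95 CPM, highest), PTPN14 in AGA HF replicate 5 (0.329 CPM, lowest), PTPRR in SGA HF replicate 6 (16.4 CPM, highest) and PTPRT in AGA HF replicate 6 (17.3 CPM, highest). PTPN7 and PTPN14 rest on few reads.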

How the results depend on the processing

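For size, 1 member was called, and 0 without surrogate variables (0.0796% of all genes called), with sex and cohort in their place (0.649%), with limma-voom (0.325%), with the filter at 6 libraries (0.276%), and at an FDR p under 0.05 or in either cohort alone (0%). It was also 0 with limma-voom and an estimated littermate correlation, with or without surrogate variables (correlation of 0.046 and 0.115, with 0.343% and 0.355% of all genes called), chosen after seeing the data. Adjusting within each contrast gave 4 (PTPN4, PTPN5, PTPRN and PTPRS), where 7.35% of all genes were called. Leaving out 1 litter gave 0 to 3 for size (3 without litter 5 or litter 8, where 7.75% and 2.05% of all genes were called), 0 to 2 for SGA CON against AGA CON (2 without litter 4, 5 or 12, with 0.672%, 2.84% and 0.923% of all genes), 0 to 3 for SGA HF against AGA HF (3 without litter 5, with 6.81% of all genes) and 0 to 1 for diet and for SGA HF against SGA CON (PTPN5 in each case, for diet without litter 4 or 5, with 1.5% and 4.66% of all genes, and for SGA HF against SGA CON without litter 4, with 0.524%). For SGA CON against AGA CON, 2 were called with the littermate block (1.26% of all genes) and 1 with DESeq2 (0.349%), RLE scaling (0.178%) or no filter (0.0985%). The block changed no other count of members called, but its size call was PTPN5, with 2.57% of all genes called. Diet could not be fitted under the block, since a litter had 1 diet. With the estimated littermate correlation, 0 members were called for diet, where 0.0551% of all genes were with surrogate variables and 0.0123% without. PTPN9 was then at 0.17 with surrogate variables and 0.092 without. PTPN4 was higher in SGA piglets in 28 of 28 alternatives (0.13 to 0.36) and was not called in 21 of them. Over the same alternatives the size value ranged from 0.12 to 0.37 for PTPN5 and from 0.088 to 0.30 for PTPRN, and the interaction ranged from 0.25 to 0.41 for PTPN23 and from -0.52 to -0.25 for PTPRR.

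Leaving out AGA CON replicate 2, alone or with AGA HF replicate 4, was chosen after seeing the data. Without the first, 1 member was called for each of diet, the interaction and SGA CON against AGA CON, where 2.55%, 0.529% and 0.787% of all genes were called, and without both, 0 for size. The PTPN1 sign-flip value was -0.15 in cohort 1 (p = 0.0625, exact) and -0.14 in cohort 2 (p = 0.156, exact), where 6 litters cannot give a p under 0.0312, and lay between -0.17 and -0.12 without each litter. PTPRN2 for AGA HF against AGA CON turned to -0.20 in cohort 2 and to -0.054 without AGA CON replicate 2, and ranged from -0.054 (without litter 4) to 0.25 (without litter 10). For diet it turned to -0.038 without AGA CON replicate 2 and ranged from -0.033 (without litter 4) to 0.18 (without litter 10). The causes were not tested.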
